A study of Mus musculus with 4 samples.

Results

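Genes that build tight junctions, adherens junctions and desmosomes were compared between cervical lymphomas of mice that lack Becn1 in myeloid cells and cervical lymph nodes of wild-type mice. The 41 members are 19 claudins, 3 MARVEL proteins, 4 tight junction plaque proteins, 3 junctional adhesion molecules, 3 apical polarity proteins, Epcam with Cdh1, and 7 desmosome genes. They were chosen by gene symbol with earlier results of these data known, and each matched 1 of the 38087 genes in the deposited read table. The groups were Becn1-M-KO (2 libraries, here KO, described by the series as B cell lymphomas) and WT (2 libraries, described as cervical lymph node controls). All samples came from C57BL/6 mice at post natal week 20, and all carry the tissue label cervical lymph node. The Cre line that drives the deletion is not named in the labels, which give no further allele, and every KO sample was also a tumour, so genotype and lymphoma cannot be told apart. Whether each sample is a different animal is not in the labels, and the p-values reflect the scatter of these libraries alone, which could be technical.

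Epithelial cells are joined by a belt of tight junctions near the apical surface, by adherens junctions beneath it and by spot-like desmosomes. Claudins form the strands and pores of the tight junction, occludin and the other MARVEL proteins lie in the same strands, and ZO proteins and cingulins link them to the actin skeleton. E-cadherin (Cdh1) holds the adherens junction together, while desmogleins, desmocollins, plakophilins, plakoglobin (Jup) and desmoplakin (Dsp) tie desmosomes to keratin filaments. Lymphocytes have no such belts, but blood and lymphatic endothelium uses Cldn5 and the JAM proteins, and leukocytes also carry F11r.

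Library totals were 15604247 and 20067004 reads in KO and 16141605 and 17874699 reads in WT. Becn1 itself stood at 49.4 and 53.2 CPM (counts scaled to a common library size) in KO and 54.7 and 63.3 CPM in WT (log2 fold change -0.20, adjusted p = 0.557 by edgeR), a whole-tissue level that does not check a deletion restricted to myeloid cells. Both WT libraries were rich in gland transcripts, by list sums given here as CPM of library totals. A list of 15 gland secretory genes summed to 147 and 4790 CPM in KO and to 520690 and 202260 in WT. The T cell list summed to 630 and 612 CPM in KO, 6.07 CPM in WT replicate 1 and 733 CPM in WT replicate 2. The B cell list summed to 2874 and 2768 CPM in KO, 24.0 in WT replicate 1 and 1817 in WT replicate 2, and the macrophage and dendritic cell list to 2570 and 2477 CPM in KO and 148 and 1198 in WT. The library labelled WT replicate 1 goes against its tissue label by its lymphocyte markers, so each test of all libraries stands beside the comparison with each WT library, for single genes in the text or in the plot of fold changes. Sex-linked genes also separated the groups, with 3 and 34 Xist reads in KO and 2088 and 5314 in WT. Their part in the results was not tested.

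**Figure D1:**
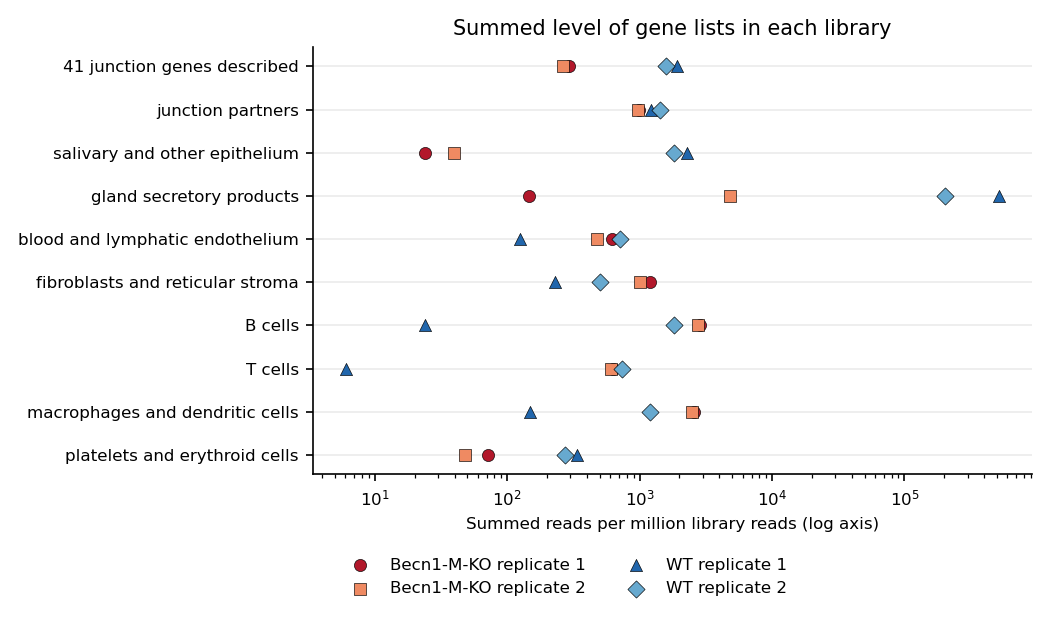
Summed CPM of library totals (x axis, logarithmic) of the 41 junction genes and of 9 lists of other genes (rows) in each library, with KO in red tones and WT in blue tones. The junction genes and the epithelial list are higher in both WT libraries, while the endothelial, B cell and T cell lists are lowest in WT replicate 1.

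Junction gene reads made up 0.0295% (95% Wilson interval 0.0287 to 0.0304) and 0.0263% (0.0256 to 0.0270) of the KO libraries, against 0.191% (0.189 to 0.193) and 0.157% (0.155 to 0.159) of the WT libraries. Intervals cover counting error only. These are bulk samples, so fewer epithelial cells and less junction RNA per cell cannot be told apart. In the test of all 4 libraries (edgeR quasi-likelihood test, adjusted p under 0.05 over 20695 genes), 7 of the 34 members tested fell and 0 rose, where 2.18% of all genes were called lower and 1.04% higher. The 7 were Cdh1, Epcam, Dsp, Pkp2, Marveld3, Tjp1 and Cldn23. Their adjusted p-values lay between 0.0435 and 0.0495, close to the threshold. When library totals alone set the scale, 0 members were called, and so were 0 of all genes tested. Calls were likewise lost, for members and for all other genes, when either KO library was left out. By unadjusted p under 0.05, 27 members were lower and 0 higher, beside 16.4% of all genes lower and 10.5% higher. The median log2 fold change was -3.19 over the 34 members tested and 0.010 over all genes. The other 7 members (Cldn2, Cldn6, Cldn9, Cldn16, Cldn18, Cldn19 and Cldn22) had too few reads for this test. Some members tested, such as Cldn23, Cldn3 and Cldn4, had under 10 reads in each KO library. Such members passed the count filter through WT alone, here and in the comparisons with each WT library. Only a lower call was open to them. In the test of all libraries the filter needed 2 libraries. There the KO libraries alone would not have carried members such as Marveld3 (3 and 14 reads), Cgn (2 and 13), Cldn8 (0 and 11) and Pkp1 (7 and 27) either. Cldn23 and Marveld3 are among the 7 called lower.

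Set against each WT library in turn, the picture widened. Both comparisons use the same KO libraries, and with 1 WT library the p-values carry no spread between WT samples. Against WT replicate 1, 29 of 34 members fell and 2 rose, beside 32.5% of 21327 genes called lower and 32.3% called higher. Against WT replicate 2, which held lymphocyte transcripts, 34 of 35 members fell and 0 rose, beside 22.8% of 21844 genes called lower and 20.9% called higher. The median over members tested was -3.85 against WT replicate 1 and -2.67 against WT replicate 2, with medians of 0.056 and 0.0045 over all genes. In 33 of the 41 members both KO libraries lay below both WT libraries in TMM-scaled CPM, a pattern seen in 30 of the 34 members tested and in 33.3% of all genes tested. The 33 include members with few reads, such as Cldn18 (4 and 6 reads in KO, 2 and 5 in WT) and Cldn22 (2 and 0 in KO, 1 and 170 in WT). The pattern also depended on the scaling. By CPM of library totals, Pkp3 (35.9 and 30.0 in KO, 25.5 in WT replicate 1) and Cldn14 (0.897 and 1.05 in KO, 0.620 in WT replicate 1) did not show it.

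**Figure D2:**
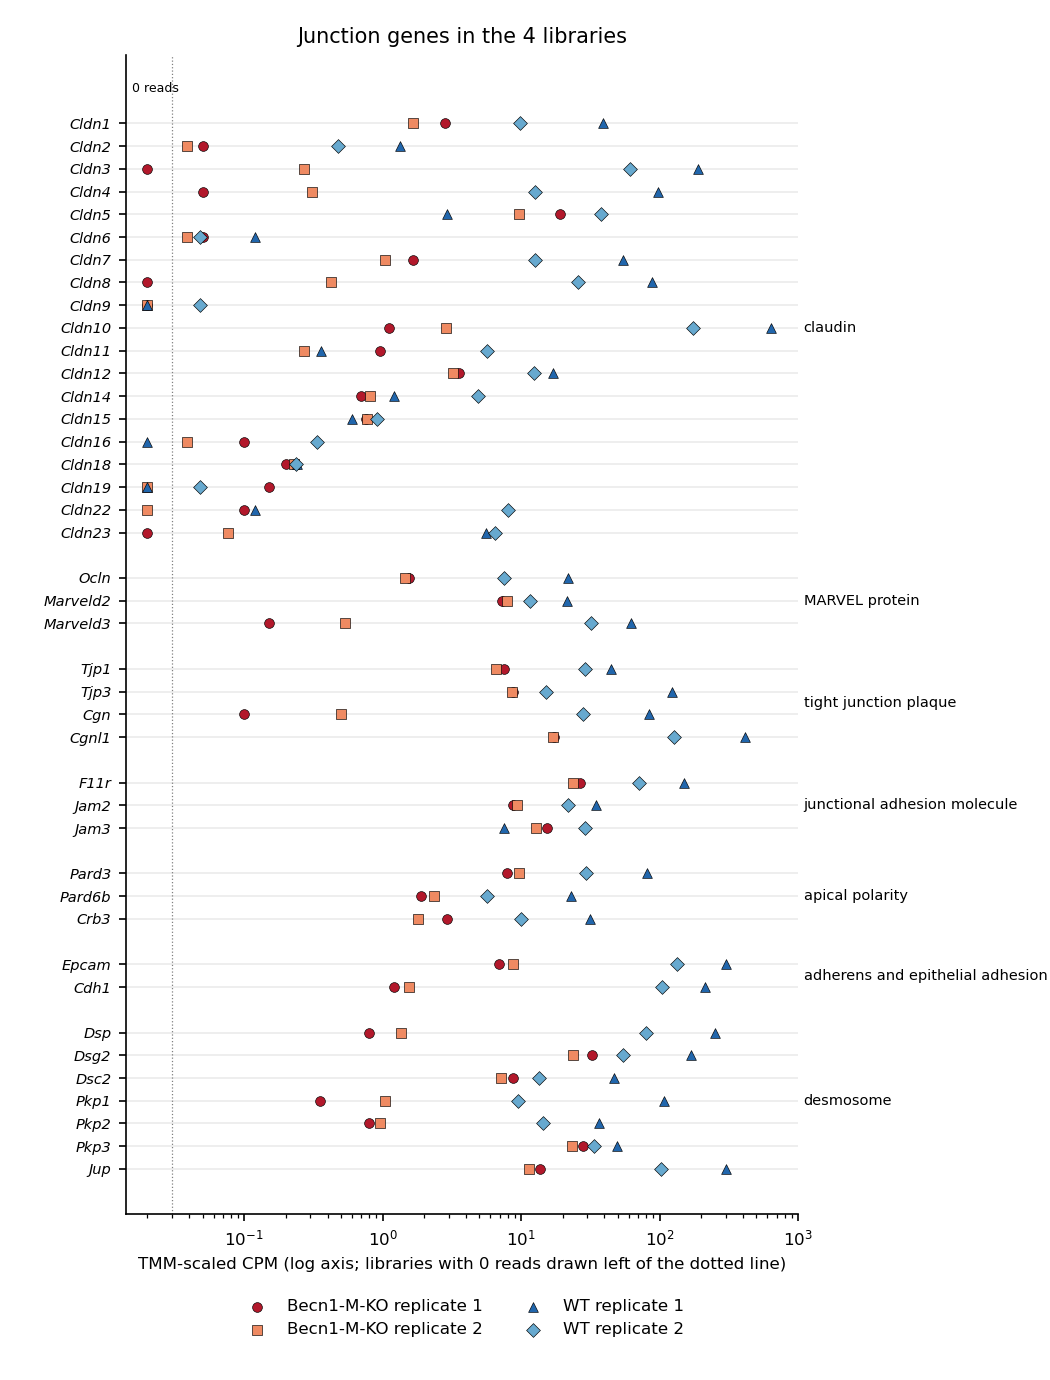
Level of each of the 41 junction genes (rows, grouped by role) in the 4 libraries, as TMM-scaled CPM on a logarithmic axis, with libraries that had 0 reads drawn left of the dotted line. KO symbols lie left of both WT symbols for most genes, by a wide gap for Cldn3, Cldn10, Cgn, Cdh1 and Dsp and a narrow one for Pkp3, while Cldn5 and Jam3 in KO fall between the WT libraries.

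Levels of genes and list sums below are CPM scaled with TMM factors (trimmed mean of M values, which correct for library make-up), unless library totals are named. The factors were 1.28 and 1.30 in KO, 0.514 for WT replicate 1 and 1.18 for WT replicate 2. With library totals alone, the median over all genes moved to 0.60 in the test of all libraries, to 1.39 against WT replicate 1 and to 0.13 against WT replicate 2. Against WT replicate 1 the calls over all genes then split into 2610 lower and 15094 higher, in place of 6922 and 6887, and against WT replicate 2 into 4224 and 5890, in place of 4988 and 4573. Of the members, 27 were still called lower and 4 higher against WT replicate 1, and 33 lower and 0 higher against WT replicate 2.

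Among claudins, the pore- and barrier-forming proteins of the tight junction strand, Cldn10, Cldn3, Cldn4 and Cldn8 had the largest fold changes in the test of all libraries. Against WT replicate 2 alone, Cldn22 (-7.36) and Cldn23 (-7.05) lay further from 0 than Cldn8 (-6.72), Cldn10 (-6.39) and Cldn4 (-5.96). Cldn10, which forms ion-selective pores, stood at 1.10 and 2.85 CPM in KO and at 643 and 174 CPM in WT. Its log2 fold change was -8.29 (SE 0.25) against WT replicate 1 and -6.39 (SE 0.22) against WT replicate 2, but -7.68 (SE 1.11, adjusted p = 0.0549 by edgeR) over all libraries. Cldn3, a sealing claudin of many epithelia, had 0 and 7 reads in KO and 1562 and 1291 reads in WT. Its log2 fold change was -10.22 (SE 0.26) against WT replicate 1 and -8.60 (SE 0.31) against WT replicate 2. Cldn8, a barrier claudin, had 0 and 11 reads in KO against 726 and 542 in WT. Cldn4, whose gene lies beside Cldn3 on chromosome 5, had 1 and 8 reads in KO against 814 and 263 in WT. For these 4 claudins the KO libraries stood far below both WT libraries, yet over all libraries their adjusted p-values (edgeR) ran from 0.0549 for Cldn10 to 0.0774 for Cldn4, and the WT libraries differed from each other by 3.06-fold (Cldn3) to 7.84-fold (Cldn4).

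Cldn23 passed the test of all libraries. It had 0 and 2 reads in KO and 46 and 137 reads in WT, a TMM-scaled KO over WT ratio of 0.00697 (95% counting interval 0.00084 to 0.0256; adjusted p = 0.0475 by edgeR). The ratio was 0.00785 (0.00092 to 0.03003) to WT replicate 1 and 0.00668 (0.00080 to 0.0246) to WT replicate 2. Cldn7, which pairs with Epcam at the lateral membrane, was at 1.66 and 1.04 CPM in KO and 54.7 and 12.5 CPM in WT (adjusted p = 0.0789 by edgeR). The log2 fold change of Cldn7 was -5.39 (SE 0.19) against WT replicate 1 and -3.24 (SE 0.26) against WT replicate 2. Cldn1, a barrier claudin of skin, had 2.81 and 1.65 CPM in KO and 38.8 and 9.80 CPM in WT. Cldn12 was less depleted, at 3.56 and 3.23 CPM in KO and 17.1 and 12.4 CPM in WT (log2 fold change -2.12, SE 0.30, adjusted p = 0.0547 by edgeR).

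Some claudins differed mostly between the WT libraries. Cldn22 had 2 and 0 reads in KO, against 1 read in WT replicate 1 and 170 in WT replicate 2. Cldn11, the claudin of myelin and Sertoli cells, had 19 and 7 reads in KO and 3 and 120 in WT. Its log2 fold change was 0.65 against WT replicate 1 (not called, adjusted p = 0.639 by edgeR) and -3.30 (SE 0.43) against WT replicate 2. Cldn14 had 14 and 21 reads in KO and 10 and 103 in WT. Its log2 fold change against WT replicate 1 was -0.68, and it turned to 0.65 with library totals alone. For Cldn11, Cldn14 and Cldn22 the WT replicate 2 library was the high one, and the KO libraries lay near WT replicate 1 in reads. Cldn15 had 15 and 20 reads in KO and 5 and 19 in WT, with a log2 fold change of -0.036 (SE 0.40, adjusted p = 0.961 by edgeR), and no difference was detectable at this depth. The remaining claudins were rare in every library. Cldn2, the cation pore of leaky epithelia, had 1 read in each KO library and 11 and 10 in WT, a TMM-scaled ratio of 0.0608 (0.00691 to 0.249). Cldn6, Cldn9, Cldn16, Cldn18 and Cldn19 had 0 to 7 reads per library. With 0 reads, a level of 3 reads (0.151 and 0.115 CPM in KO, 0.362 and 0.143 CPM in WT) could not be told from absence. Cldn18 and Cldn19 also overlap antisense genes, so their few reads may not be their own.

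Claudin reads differed between groups in make-up as well as in number. They totalled 626 and 563 in KO and 9460 and 7853 in WT. Cldn5, the claudin of endothelial tight junctions, supplied 61.0% (Wilson interval 57.1 to 64.8) and 44.4% (40.4 to 48.5) of claudin reads in KO, against 0.254% (0.171 to 0.377) in WT replicate 1 and 10.1% (9.48 to 10.8) in WT replicate 2. Cldn10 supplied 3.51% and 13.1% in KO and 56.4% and 46.6% in WT. Per kilobase of exon (GENCODE M21 exons) and by library totals, Cldn5 was the highest claudin in both KO libraries, at 17.3 and 8.80 CPM per kilobase. In WT the highest was Cldn10, at 128 and 79.0, followed by Cldn3 at 76.9 and 57.4; as reads may also come from introns, the Cldn10 level, over a gene of 87619 bases, may be overstated.

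**Figure D3:**
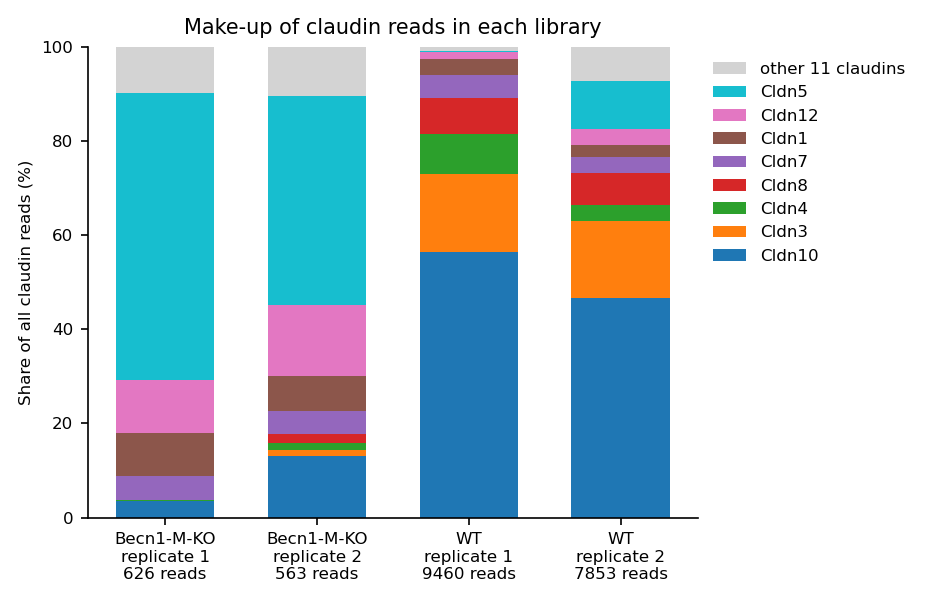
Share of all claudin reads (y axis, percent) taken by 8 claudins and by the other 11 together in each library, with the total claudin reads under each bar. Cldn5 takes 61.0% and 44.4% of the KO bars, and Cldn10 takes 56.4% and 46.6% of the WT bars.

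Cldn5 was the claudin called in opposite directions against the WT libraries. Its level was 19.2 and 9.61 CPM in KO, 2.89 CPM in WT replicate 1 and 37.8 CPM in WT replicate 2. It rose by 2.28 (SE 0.46, adjusted p = 0.00071 by edgeR) on the log2 scale against WT replicate 1 and fell by 1.41 (SE 0.26, adjusted p = 0.00091) against WT replicate 2, with -0.52 (SE 1.21, adjusted p = 0.801) over all libraries. In sum, the endothelial list of 15 genes had the same order across libraries, at 486 and 366 CPM in KO, 244 CPM in WT replicate 1 and 603 CPM in WT replicate 2. Its genes did not all share that order. Pecam1 did, at 145 and 126 CPM in KO and 32.2 and 171 CPM in WT. Tek (4.22 and 3.92 CPM in KO, 9.76 and 9.04 in WT) and Vwf (29.2 and 21.1 CPM in KO, 49.5 and 93.9 in WT) did not. Relative to Pecam1, a pan-endothelial adhesion gene, there were 0.132 and 0.0763 Cldn5 reads per Pecam1 read in KO, 0.0899 in WT replicate 1 and 0.222 in WT replicate 2. The Cldn5 share of the reads of that pair was 11.7% (Wilson interval 10.6 to 12.8) and 7.09% (6.29 to 7.98) in KO, 8.25% (5.60 to 11.98) in WT replicate 1 and 18.1% (17.03 to 19.3) in WT replicate 2. In KO the Cldn5 share was thus below WT replicate 2, while the WT replicate 1 interval reached from below KO replicate 2 to within the interval of KO replicate 1. Relative to Cdh5, VE-cadherin, there were 0.507 and 0.408 Cldn5 reads per Cdh5 read in KO, 0.300 in WT replicate 1 and 1.25 in WT replicate 2.

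The start-proximal sequence of 4 members is shown because Cldn3, Cldn4 and Epcam stand for the group that was low in KO and Cldn5 for the one that led the claudin reads there. Each is the 250 bases before the RefSeq start on GRCm38.p6, read 5′ to 3′ on the gene's strand, with motif matches on either strand in capitals. Searched were CAGGTG, the E-box bound by ZEB and SNAI repressors, then AACCNGTT, a relaxed grainyhead site, then GGGCGG, the box bound by SP factors, and TATAAA, the core promoter box. They lie at chr5:134985964-134986213 (Cldn3, plus strand), chr5:134946935-134947184 (Cldn4, minus), chr17:87635729-87635978 (Epcam, plus) and chr16:18776597-18776846 (Cldn5, plus).
Cldn3: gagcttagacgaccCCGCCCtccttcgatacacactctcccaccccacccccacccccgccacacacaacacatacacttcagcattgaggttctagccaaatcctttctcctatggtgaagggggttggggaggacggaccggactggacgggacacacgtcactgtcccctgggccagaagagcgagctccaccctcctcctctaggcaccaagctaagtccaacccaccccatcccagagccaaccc
Cldn4: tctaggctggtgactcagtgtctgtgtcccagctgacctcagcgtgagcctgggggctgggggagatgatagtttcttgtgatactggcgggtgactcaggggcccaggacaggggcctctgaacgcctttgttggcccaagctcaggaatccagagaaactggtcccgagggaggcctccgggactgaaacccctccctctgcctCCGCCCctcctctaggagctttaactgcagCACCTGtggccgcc
Epcam: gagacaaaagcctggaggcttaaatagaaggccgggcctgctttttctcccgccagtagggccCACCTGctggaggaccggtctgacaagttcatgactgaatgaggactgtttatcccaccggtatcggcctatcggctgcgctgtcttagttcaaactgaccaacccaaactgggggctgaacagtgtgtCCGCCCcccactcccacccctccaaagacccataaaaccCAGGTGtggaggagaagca
Cldn5: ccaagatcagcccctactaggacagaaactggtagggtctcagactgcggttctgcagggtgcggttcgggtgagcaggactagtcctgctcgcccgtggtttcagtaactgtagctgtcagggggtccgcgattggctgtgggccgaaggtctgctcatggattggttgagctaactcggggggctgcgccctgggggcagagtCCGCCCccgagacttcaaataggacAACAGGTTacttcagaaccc

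RefSeq windows were matched for 29 of the 41 members, among 27025 genes in all. The E-box was present in at least 1 window of 11 of the 29 members (37.9%) and of 19.4% of all genes, and the SP box in 22 members (75.9%) and 35.4% of all genes. The relaxed grainyhead letters were found in Cgn and Cldn5 and in 1.998% of all genes. TATAAA was found in 3 members (10.3%) and in 14.3% of genes. Of the sequences shown, Epcam holds 2 E-boxes and Cldn4 holds 1, while Cldn3 and Cldn5 hold none. All 4 hold the SP box letters, and Cldn5 also holds the relaxed grainyhead letters. The member windows were richer in G and C (median 59.4%, against 52.4% in all windows). A match is a description of letters and says nothing of binding in these samples.

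MARVEL proteins, the 4-pass membrane proteins of the tight junction strand, were spread widely. Marveld3 fell to 0.151 and 0.538 CPM in KO, against 62.7 and 32.1 CPM in WT (log2 fold change -7.02, SE 0.78, adjusted p = 0.0463 by edgeR), with -7.40 against WT replicate 1 and -6.42 against WT replicate 2. Ocln, which encodes occludin, had 1.56 and 1.46 CPM in KO and 21.7 and 7.47 CPM in WT (-3.26, SE 0.65, adjusted p = 0.0789). Marveld2, tricellulin, which seals the corners where 3 cells meet, stood at 7.33 and 7.88 CPM in KO, against 21.3 and 11.6 CPM in WT. Its value was -1.11 (SE 0.38, adjusted p = 0.173) over all libraries, and it fell by 0.60 (SE 0.17) against WT replicate 2. Within this family the KO level was 1.07% of WT replicate 2 for Marveld3, 20.2% for Ocln and 65.5% for Marveld2.

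Plaque proteins showed the same spread. Cgn, cingulin, a tight junction protein of epithelia, had 2 and 13 reads in KO against 691 and 585 in WT (-7.44, SE 1.05, adjusted p = 0.0542 by edgeR). Its relative Cgnl1, paracingulin, found at tight and adherens junctions and also in endothelium, stood at 17.3 and 16.9 CPM in KO and 412 and 127 CPM in WT (-3.98, SE 0.71, adjusted p = 0.0704). Tjp1, the scaffold ZO-1, which many cell types make, fell to 7.53 and 6.57 CPM in KO, against 44.8 and 28.9 CPM in WT (-2.38, SE 0.31, adjusted p = 0.0495), with -2.69 against WT replicate 1 and -2.03 against WT replicate 2. The Tjp1 call was lost with DESeq2 size factors (adjusted p = 0.0539), with limma-voom (0.0535) and with the most abundant genes left out of the scaling (0.0505). Tjp3, the epithelial scaffold ZO-3, had 8.78 and 8.54 CPM in KO and 124 and 15.1 CPM in WT, so the WT libraries differed by 8.16-fold. Against WT replicate 2 it fell by 0.80 (SE 0.15), with a log2 fold change of -3.85 (SE 0.11) against WT replicate 1. Tjp3 shares 40 bases with Apba3 on the opposite strand, which had 1.17 reads for each Tjp3 read, so some of its reads may not be its own.

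Junctional adhesion molecules, immunoglobulin-type proteins of epithelium, endothelium and leukocytes, were the role with the smallest median change over all libraries (-1.64). F11r, JAM-A, stood at 26.7 and 23.7 CPM in KO and 151 and 71.3 CPM in WT. Its log2 fold change was -2.60 (SE 0.11) against WT replicate 1 and -1.498 (SE 0.11) against WT replicate 2, and it missed the threshold over all libraries (-2.14, adjusted p = 0.0844 by edgeR). Jam2, JAM-B, known from endothelium, had 8.68 and 9.34 CPM in KO and 34.7 and 21.8 CPM in WT. For Jam2 the log2 fold change was -1.96 (SE 0.15) against WT replicate 1 and -1.26 (SE 0.14) against WT replicate 2. Jam3, JAM-C, behaved like Cldn5 in its order across libraries, with 15.4 and 12.8 CPM in KO between 7.47 CPM in WT replicate 1 and 28.8 CPM in WT replicate 2. It rose by 0.90 (SE 0.21, adjusted p = 0.0024) against WT replicate 1 and fell by 1.03 (SE 0.14, adjusted p = 8.3e-05) against WT replicate 2. Set against Pecam1, Jam3 had 0.106 and 0.102 reads per Pecam1 read in KO and 0.232 and 0.169 in WT.

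Apical polarity genes were lower in KO than in either WT library. Pard3, a scaffold of the PAR complex that many cells use, had 7.88 and 9.65 CPM in KO and 81.7 and 29.5 CPM in WT. Pard6b, its partner, had 1.91 and 2.35 CPM in KO and 22.8 and 5.66 CPM in WT. Crb3, the epithelial Crumbs protein, had 2.91 and 1.81 CPM in KO and 31.5 and 9.95 CPM in WT. All 3 fell against each WT library, with log2 fold changes of -3.78 to -3.23 against WT replicate 1 and -2.10 to -1.39 against WT replicate 2, while 0 of 3 passed over all libraries (adjusted p = 0.0903 to 0.134 by edgeR). Crb3 overlaps Slc25a23 on the opposite strand by 759 bases, and Slc25a23 had 4.63 reads for each Crb3 read.

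Cdh1 and Epcam were called lower over all libraries. Cdh1, the adhesive cadherin of epithelia, fell to 1.20 and 1.54 CPM in KO, against 213 and 104 CPM in WT (log2 fold change -6.84, SE 0.56, adjusted p = 0.0435 by edgeR). Epcam, the epithelial adhesion protein also carried by some dendritic and other immune cells, fell to 6.98 and 8.73 CPM in KO, against 302 and 135 CPM in WT (-4.79, SE 0.56, adjusted p = 0.0475). Against WT replicate 1 the values were -7.27 for Cdh1 and -5.27 for Epcam, and against WT replicate 2 they were -6.21 and -4.08. The ratio within the pair differed between groups. There were 0.173 and 0.176 Cdh1 reads per Epcam read in KO and 0.706 and 0.770 in WT, and the Cdh1 share of the pair was 14.7% (Wilson interval 10.1 to 21.0) and 14.98% (11.2 to 19.8) in KO against 41.4% (39.9 to 42.9) and 43.5% (42.1 to 44.9) in WT. The KO libraries were alike in this share, the WT libraries were close to each other, and the intervals of the groups were far apart. The pair was not planned, and its share restates that Cdh1 fell further than Epcam.

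Desmosome genes differed widely in how much was left in KO. Dsp, desmoplakin, the link to keratin, fell to 0.803 and 1.35 CPM in KO, against 250 and 80.3 CPM in WT (-7.25, SE 0.86, adjusted p = 0.0475 by edgeR), a call lost with limma-voom (adjusted p = 0.0518). Pkp2, a plakophilin of simple epithelia and heart, fell to 0.803 and 0.961 CPM in KO, against 36.3 and 14.3 CPM in WT (-4.82, SE 0.62, adjusted p = 0.0491), a call lost with DESeq2 size factors (adjusted p = 0.0507) and limma-voom (0.0635). Pkp1, the plakophilin of stratified epithelia, had 0.351 and 1.04 CPM in KO and 108 and 9.57 CPM in WT, an 11.3-fold difference within WT. Without WT replicate 1, the log2 fold change was -6.17 for Dsp, -3.99 for Pkp2 and -3.69 for Pkp1, and without WT replicate 2 it was -7.83, -5.35 and -7.20 for the same genes. Jup, plakoglobin, shared by desmosomes and adherens junctions, had 13.8 and 11.5 CPM in KO and 304 and 103 CPM in WT (-4.00, SE 0.67, adjusted p = 0.0648).

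Dsg2, Dsc2 and Pkp3 had the KO levels nearest to those of WT replicate 2 among the desmosome genes. Dsg2, the desmoglein of simple epithelia, had 32.5 and 23.8 CPM in KO and 169 and 54.7 CPM in WT. Dsc2, its desmocollin counterpart, had 8.78 and 7.15 CPM in KO and 46.6 and 13.6 CPM in WT. Pkp3, a plakophilin found across epithelia, had 28.1 and 23.2 CPM in KO and 49.5 and 33.4 CPM in WT (-0.69, SE 0.29, adjusted p = 0.225 by edgeR). Against WT replicate 2 alone Pkp3 fell by 0.38 (SE 0.14, adjusted p = 0.0403). Against WT replicate 1 its sign depended on the scaling, at -0.97 with TMM and 0.37 with library totals alone, which also turned its value over all libraries to 0.026. Dsg2 held 97.6% (Wilson interval 96.1 to 98.5) and 94.6% (92.6 to 96.1) of the reads of Dsg2 plus Dsp in KO and 40.3% (38.7 to 42.0) and 40.5% (38.7 to 42.3) in WT. Pkp3 held 97.2% (95.5 to 98.3) and 96.02% (94.2 to 97.3) of the reads of Pkp3 plus Pkp2 in KO, against 57.7% (54.1 to 61.3) and 70.0% (67.1 to 72.7) in WT. Not every pair separated the groups, as Pkp1 held 30.4% and 51.9% of the reads of Pkp1 plus Pkp2 in KO and 74.9% and 40.0% in WT. These pairs were not planned, and their shares restate the unequal changes of single genes. Dsg2 overlaps the antisense gene Gm16090 over 6558 bases, and Gm16090 had 0.688 reads for each Dsg2 read, so part of the Dsg2 level may not be its own.

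**Figure D4:**
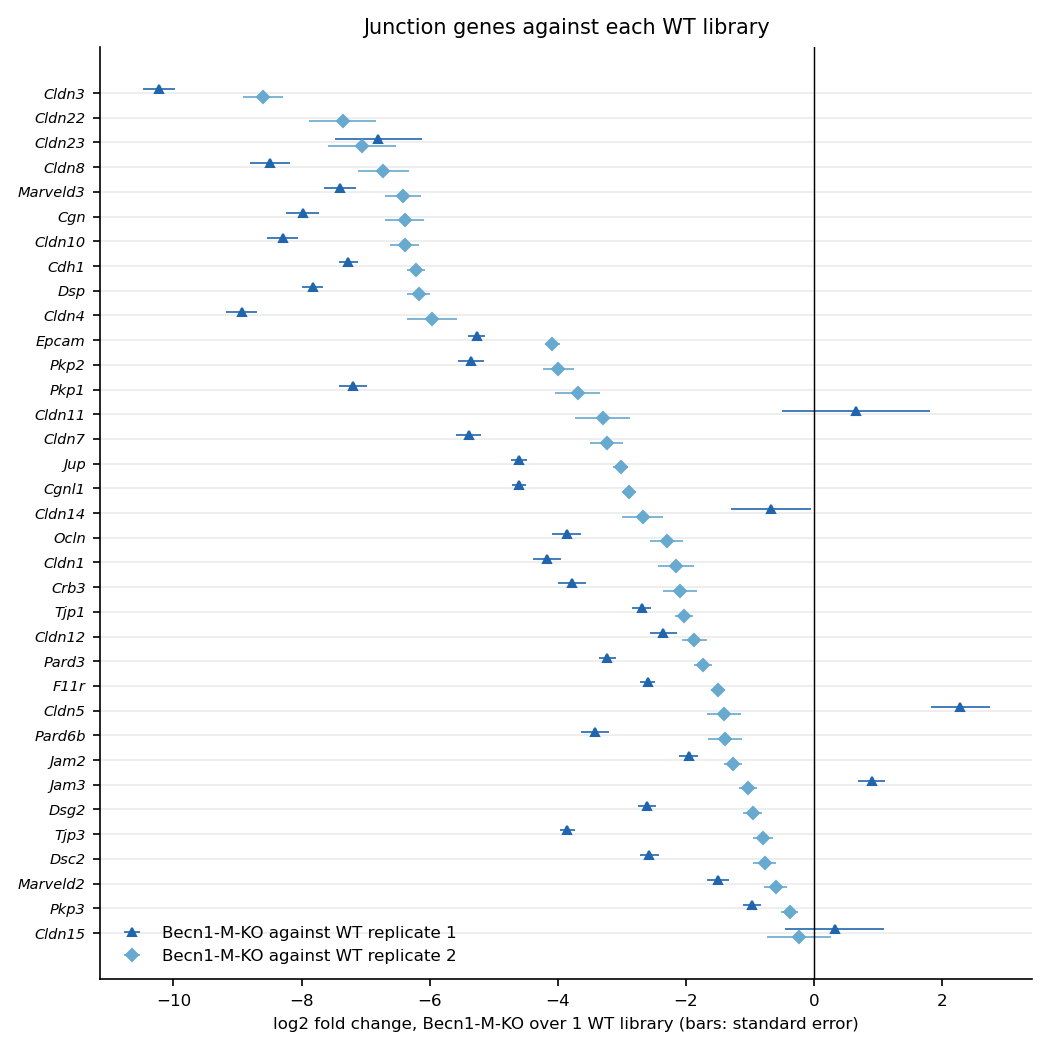
Log2 fold change of KO over WT replicate 1 (triangles) and over WT replicate 2 (diamonds) for the members tested, with standard errors as bars, ordered by the value against WT replicate 2. Values against WT replicate 2 run from -8.60 for Cldn3 to -0.24 for Cldn15, and Cldn5, Jam3, Cldn11 and Cldn15 lie on opposite sides of 0 in the 2 comparisons.

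Across roles, the KO level as a share of WT replicate 2 fell into a wide range among the 34 members with over 50 reads in that library. It was 0.219% to 1.43% in 10 members (Cldn3, Cldn23, Cldn22, Cldn8, Marveld3, Cgn, Cldn10, Cdh1, Dsp and Cldn4). It was 5.83% to 13.5% in 7 members, from Epcam to Cgnl1, and 15.4% to 48.9% in 12, from Cldn14 to Jam3. It was 51.4% to 76.8% in 5, namely Dsg2, Tjp3, Dsc2, Marveld2 and Pkp3. As shares of WT replicate 1 these 5 stood at 16.6%, 7.01%, 17.1%, 35.7% and 51.8%, while Cldn5 and Jam3 stood at 498% and 189%. The 50-read minimum was set on WT replicate 2 itself, so it favoured members high in that library and thus low shares of it. Cldn22, Cldn11 and Cldn14, for example, had 1, 3 and 10 reads in WT replicate 1. The epithelial list of keratins, aquaporin and epithelial transcription factors had a median log2 fold change of -6.92 against WT replicate 2, with 14 of 14 tested genes lower, and -7.85 over all libraries, with 6 of 14 lower. Ehf, an epithelial transcription factor, and Esrp1, an epithelial splicing regulator, fell (log2 fold change -6.77, SE 0.59, and -7.74, SE 0.68, adjusted p = 0.0441 for each by edgeR).

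Members with few KO reads were also compared between the KO libraries. A set of 13 members was chosen after their values were seen, as those over 10 CPM in both WT libraries and under 4 CPM in both KO libraries (CPM of library totals). Of these, 10 were higher in KO replicate 2 (Cldn3, Cldn4, Cldn8, Cldn10, Marveld3, Cgn, Cdh1, Dsp, Pkp1 and Pkp2) and 3 in KO replicate 1 (Cldn1, Cldn7 and Crb3), with a sum of 18.5 CPM in KO replicate 2 and 15.3 CPM in KO replicate 1. How many of all genes lay higher in KO replicate 2 was not counted. Cldn10 had 2.62 times the level in KO replicate 2 (95% counting interval 1.61 to 4.42), and Pkp1 had 2.999 times (1.27 to 8.16), while for Cdh1 the interval (0.762 to 2.25) included 1. In the other direction, Cldn1 had 0.597 times (0.392 to 0.9045) and Crb3 0.630 times (0.420 to 0.942), while for Cldn7 the interval (0.368 to 1.09) included 1. Secretory genes were also higher in KO replicate 2. Spt1, a salivary secretory gene, had 67656 reads in KO replicate 2 and 1362 in KO replicate 1, which is 1.31% and 0.0264% of its 5168161 reads in WT replicate 1. For the other secretory genes read this way, the share in KO replicate 2 ran from 0.550% for Car6 to 1.33% for Prol1. KO replicate 2 held 1.39% of the WT replicate 1 reads of Cldn10, 1.52% of those of Cldn8 and 0.448% of those of Cldn3. The share was 0.983% for Cldn4, 1.68% for Dsp, 1.88% for Cgn, 2.26% for Cdh1 and 2.69% for Marveld3. The rest of the set lay higher, at 3.01% for Pkp1, 5.95% for Cldn7, 8.31% for Pkp2, 13.4% for Cldn1 and 18.0% for Crb3. For F11r the share was 49.2% in KO replicate 2 and 42.5% in KO replicate 1. The part of gland RNA, or of reads passed between libraries, in these low levels was not tested.

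Other junction genes were read from a list of 41 partners, of which 39 were tested. Over all libraries 1 fell and 0 rose, near the 2.18% of all genes called lower and 1.04% called higher. The median log2 fold change was -1.07 over partners and 0.010 over all genes. Against WT replicate 1 the partner median was -1.44, beside 0.056 over all genes. Against WT replicate 2 it was -0.62, beside 0.0045 over all genes. Partners lay on both sides of 0 in each comparison. Cxadr, the coxsackievirus receptor of epithelial junctions, fell to 2.56 and 3.42 CPM in KO, against 27.0 and 19.7 CPM in WT (-2.96, SE 0.33, adjusted p = 0.0459 by edgeR). Perp, a desmosomal membrane protein, had 0.301 and 1.08 CPM in KO and 179 and 58.6 CPM in WT (-7.38, SE 1.05, adjusted p = 0.0543). Magi3, Magi1 and Evpl, junction scaffolds and a keratin linker, had values of -2.76, -3.35 and -4.35 (adjusted p = 0.056 to 0.0629). Ctnnb1, the adherens junction protein beta-catenin, had 235 and 233 CPM in KO and 373 and 239 CPM in WT (-0.39, adjusted p = 0.513).

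Dsc3 and Cdh11 were the partners called higher against WT replicate 2. A larger part of the partner list was called lower there, while calls over all genes were nearly even in direction. Dsc3, a desmocollin of stratified epithelium, had 33.0 and 42.4 CPM in KO and 10.7 and 13.4 CPM in WT. It rose against each WT library (log2 fold change 1.80, SE 0.20, and 1.504, SE 0.17), with 1.64 (SE 0.26, adjusted p = 0.061 by edgeR) over all libraries. Cdh11, a cadherin of mesenchymal cells, had 20.9 and 19.4 CPM in KO and 8.07 and 8.61 CPM in WT (1.27, SE 0.21, adjusted p = 0.0659). The fibroblast and reticular stroma list stood at 936 and 782 CPM in sum in KO and 448 and 425 CPM in WT, and its part in the Cdh11 level was not tested. Cdh5 of endothelial adherens junctions had 37.8 and 23.5 CPM in KO and 9.64 and 30.4 CPM in WT, with 0.011 (adjusted p = 0.973) against WT replicate 2.

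The authors' deposited table of gene comparisons lists 5511 genes with an unadjusted p-value up to 0.05, and 21 of the 41 members are among them. The read table holds 38087 genes. How many of them the authors tested is not given, so the share listed among genes tested is unknown. The table gives all 21 as lower in KO (3029 of its genes are down and 2482 up). In the authors' deposited table the log2 fold change ran from -9.72 for Cldn3 to -1.61 for Jam2, with -7.22 for Cdh1 and -4.77 for Epcam.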

How the data were processed

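RNA of 2 KO and 2 WT samples was sequenced on libraries made with an Ion Total RNA-Seq kit after ribosomal RNA depletion, per the labels' protocols. The authors deposited raw read counts, whole numbers for each gene (per the file headers). The submitters' processing notes list mm10 as build and DESeq2 1.62 as tool and give neither a role. Which aligner and counter were run is not given in the sources used here. Each listed length equals the whole genomic span for 38087 genes, so intronic reads may be counted, and strand use is unknown. Their second deposited table holds, for each gene, the log2 change and its p-value without adjustment, as the file headers show. The other 8 per-sample columns were not used.

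The test was that of edgeR 4.0.16 under R 4.3.3 (quasi-likelihood, TMM, filterByExpr with minimum count 10 and total 15), with Benjamini-Hochberg adjustment over all genes tested and a threshold of 0.05. Each SE was derived from the log2 value and its F statistic, as their quotient with the square root of F. DESeq2 1.42.0 and limma 3.58.1 were alternatives. Fits were tested on simulated counts with known changes. Apart from those changes the simulated libraries shared 1 make-up, so the scaling of WT replicate 1 was not checked by them. Replicates differed by more than sampling noise (chi-square per gene 11.1 for the KO pair and 695 for the WT pair). Members and lists were chosen with earlier results of these data known; 138 list entries were used, of which 137 matched. Named genes are all members, the partners with the smallest p in each direction, markers and Becn1; Ctnnb1 and Spt1 were chosen after their values were seen.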

Additional observations from a re-analysis of the deposited data

How the results depend on the processing

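Members called over all libraries numbered 7, and 5 with DESeq2 size factors or limma-voom, 6 with the most abundant genes left out of the scaling and 7 with a stricter filter. They numbered 0 with library totals, 17 with no count filter and 26 with the DESeq2 test. Genes called numbered 667, and 0 with library totals, 1730 with no filter and 3755 with DESeq2. Partners called numbered 1, and 0, 8 and 19 in those settings. Leaving out 1 library in turn gave 0 to 34 members, 0 to 13809 genes and 0 to 32 partners, with 0 of each without either KO library. By unadjusted p under 0.05, 22 members were lower without KO replicate 1 (6.07% of all genes lower, 3.37% higher) and 21 without KO replicate 2 (6.26% and 3.46%), with 0 members higher. At the 0 genes with library totals, 1509 genes were lower and 1482 higher by unadjusted p, as were 2734 and 1866 with the replicate block. The replicate block gave 0 genes, 0 members and 0 partners. The numbers are not said to pair samples, and same-numbered libraries deviated with a correlation of -0.108; a crossed pairing, added after seeing the data, gave 845 genes, 12 members and 5 partners. Signs turned for Cldn15 (0.50 with library totals, 0.0064 with no filter, 0.0029 with the block, 0.0087 crossed; -0.24 to 0.32 when 1 library was left out, with 0.010 without KO replicate 1), Cldn5 (0.26 with the block, 0.29 crossed; -1.41 to 2.28 when 1 library was left out), Cldn11 (-3.49 to 0.65) and Jam3 (-1.03 to 0.90, both when 1 library was left out), Pkp3 (0.026 with library totals, and 0.37 against WT replicate 1) and Cldn14 (0.65 against WT replicate 1 with library totals). The cause was not tested.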
